A study of Homo sapiens with 60 samples.

Results

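The genes described here are 9 human genes of retinoid and alcohol metabolism, followed through every group of the series. They are the alcohol dehydrogenases ADH1C and ADH5, the short-chain dehydrogenases RDH10, DHRS3, DHRS9 and DHRS2, the aldehyde dehydrogenase ALDH1A1, and the retinoic acid receptors RARA and RARG. The receptors are not enzymes and complete the route from retinol to its effect on transcription. The genes were chosen by name, and they were chosen from earlier results of these data, among them the levels at each dose against vehicle and the change from low to high dose. All 9 were found among the 60675 gene IDs of the table, and 9 of 9 passed the filter that left 16022 genes to test.

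The cells were HT29, an established line from a human colorectal adenocarcinoma, treated for 24 h and sequenced in 60 bulk mRNA libraries in 25 groups. The treatments were 8 extracts, made with 70% ethanol, at 3 doses each. They were 6 single herbs, Aconiti Lateralis Radix Preparata, Zizyphi Fructus, Cimicifugae Rhizoma, Coptidis Rhizoma, Citri Unshius Pericarpium and Bupleuri Radix, and 2 formulas of several herbs, Yijung-tang and Banhasasim-tang. The vehicle group held 3 libraries, labelled as 0.1% DMSO for each sample, whereas the design text of the series gives 2%. Low, medium and high doses were 20, 100 and 500 µg/mL for 6 of the extracts. Bupleuri Radix was given at 12.4, 62 and 310 µg/mL instead. The doses of Coptidis Rhizoma were 12.8, 64 and 320 µg/mL. Per the design text, an extract whose IC20 lay below 500 µg/mL was used at that IC20 as its high dose, so the high dose of these 2 extracts was set by an inhibitory effect on the cells. The vehicle, Citri, Cimicifugae, Bupleuri and Aconiti groups held 3 libraries each. The Coptidis, Zizyphi and Yijung-tang groups held 2 each, and the Banhasasim-tang groups held 1. Per the design text, the authors had left out samples with too little RNA. Nothing in the labels says that replicates came from separate cultures, so the spread behind the p-values is that between libraries and may be technical.

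The sample codes place the libraries in sets, each with a pair of extracts at all doses (Coptidis with Zizyphi, Citri with Cimicifugae, Bupleuri with Aconiti, Yijung-tang with Banhasasim-tang), and place the vehicle libraries in a set of their own. Vehicle against extract is thus also set against set, and these cannot be told apart, while a difference between doses of an extract lies within a set. The titles give all 60 libraries, vehicle included, the same label, BatchD, and do not say what the codes stand for. Library totals ran from 18.1 M to 36.7 M counts (M for mega), with a median of 24.1 M, and 3 counts, taken as the floor, corresponded to 0.0817 to 0.166 counts per M library counts (CPM). Of 8 markers of colon epithelium all were measured, with a summed level of 8097 to 13282 CPM in a library. That sum was mostly the keratins KRT8 and KRT18, at 6864 and 3845 CPM in vehicle, and CDX2 and CEACAM5 were lowest, at 5.66 and 5.29 CPM. The summed levels of 4 fibroblast, 3 leukocyte and 2 endothelial markers did not exceed 3.92, 38.3 and 2.51 CPM, and the leukocyte sum was nearly all CD68, with PTPRC at 2 counts or fewer. The library Zizyphi Fructus medium replicate 3 stood apart. In it 23.6% of the genes tested lay more than 2-fold from the other doses of its extract, against 1.43% in the other library of its group, and results that rest on it are given with and without it. In bulk RNA, fewer cells of a kind and less RNA per cell cannot be told apart.

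Retinoic acid is made from vitamin A in successive oxidations. Retinol is oxidised to retinal, reversibly, mainly by microsomal short-chain dehydrogenases such as RDH10, with a contribution from medium-chain alcohol dehydrogenases. Retinal is reduced back to retinol by enzymes such as DHRS3, or oxidised irreversibly to retinoic acid by aldehyde dehydrogenases of the ALDH1A family. Retinoic acid binds the receptors RARA, RARB and RARG, which act as dimers with retinoid X receptors on DNA. In the intestinal epithelium the pathway is known for its part in differentiation and in the homing of immune cells.

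Levels of the 9 genes in vehicle differed widely. Per kilobase of exon, ALDH1A1 was highest at 275 CPM per kb, followed by ADH5 at 24.0 and RARG at 22.3. DHRS3, RDH10 and RARA lay close together at 10.2, 7.45 and 7.26 CPM per kb. ADH1C, DHRS2 and DHRS9 were the lowest at 1.25, 1.09 and 0.22 CPM per kb. The order of the neighbours ADH5 and RARG, of RDH10 and RARA, and of ADH1C and DHRS2 was not tested. RNA of ALDH1A1, an enzyme that makes retinoic acid, was thus the most abundant, and DHRS9 was the gene read with least precision, with 8 to 52 counts in a library.

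**Figure D1:**
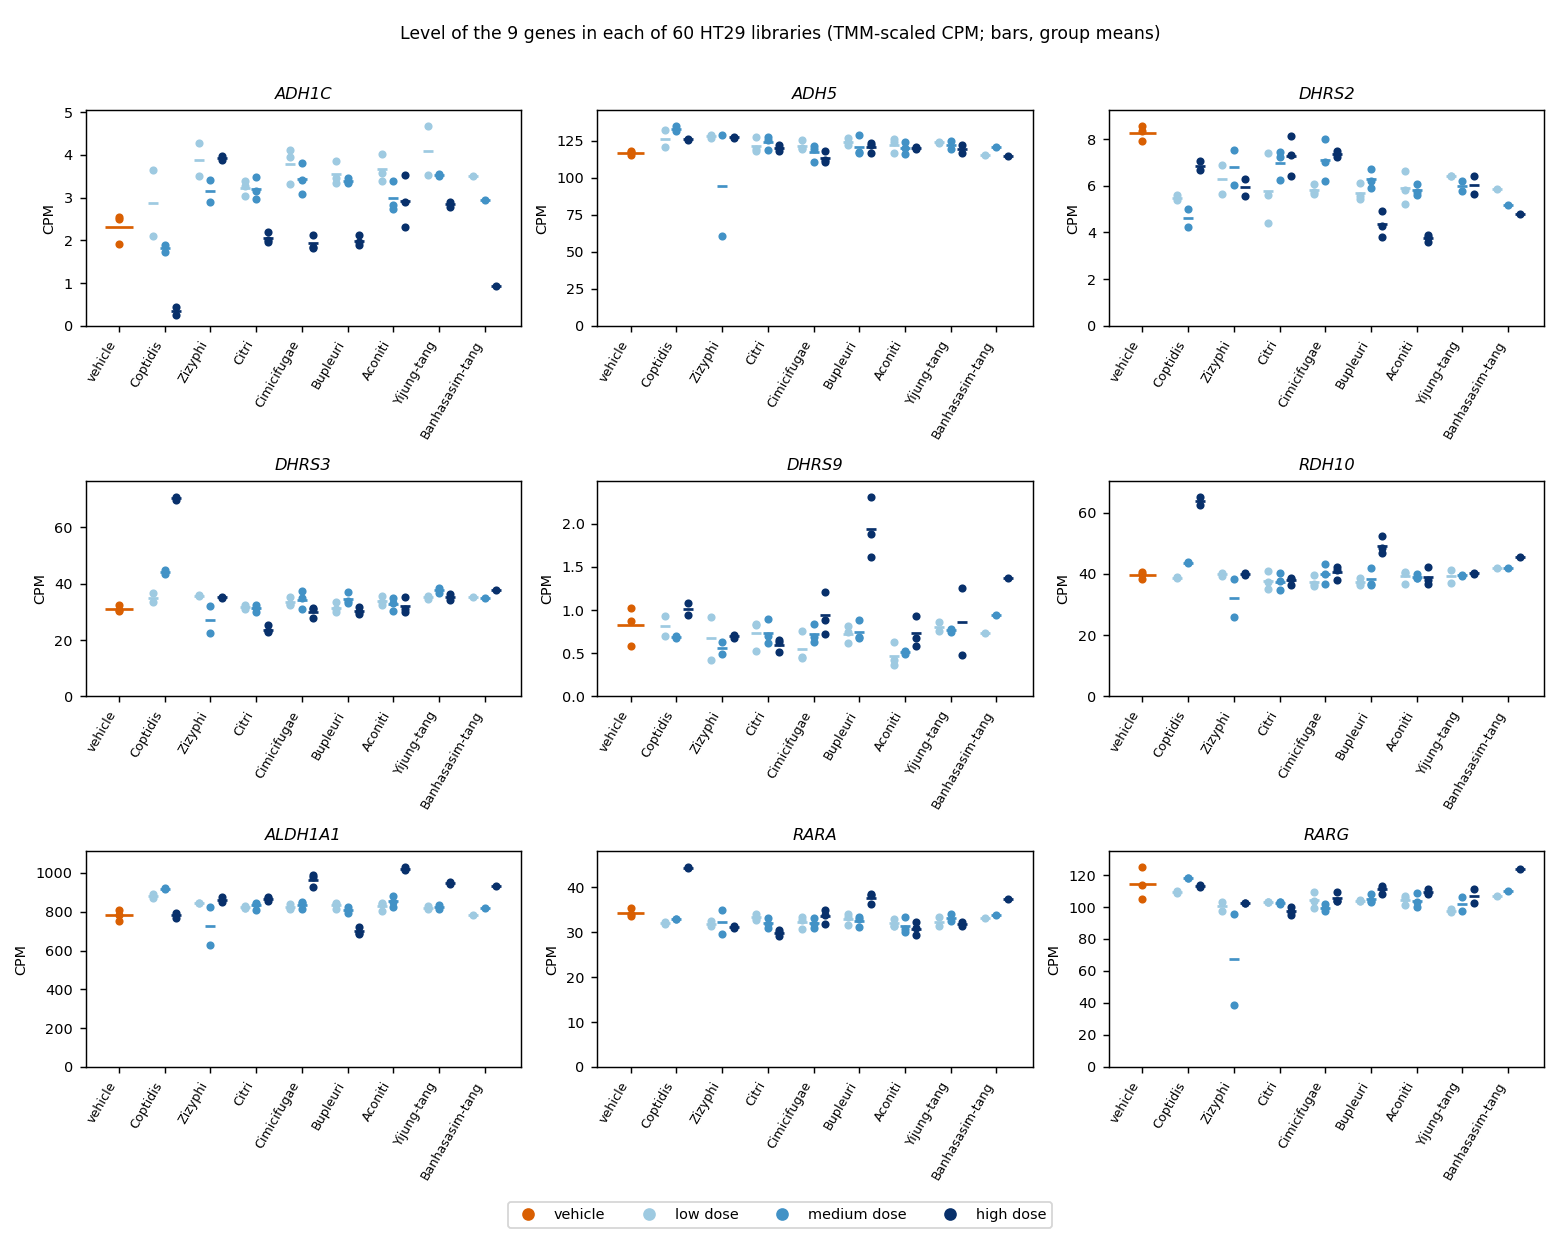
Level of each of the 9 genes in each of the 60 libraries, in CPM scaled by TMM on a linear axis from 0, by treatment; colours mark vehicle and the 3 doses, and bars mark group means. The high dose of Coptidis lies lowest for ADH1C and highest for DHRS3, RDH10 and RARA, the high dose of Bupleuri lies highest for DHRS9, and 1 library of Zizyphi at medium dose lies far below its partner for ADH5 and RARG.

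In the sections that follow, a log2 change comes from 1 edgeR quasi-likelihood model of all libraries and is given with its standard error. A change is called past the threshold where its Benjamini-Hochberg adjusted p over all 16022 genes was under 0.05. From low to high dose, 17 of the 72 pairs of a gene and an extract were past the threshold, 8 higher and 9 lower, in 6 of the 8 extracts. Since earlier results of these data chose the genes partly on this comparison and on that with vehicle, these values are a description and no p is given for them. The share of all genes called was 56.2% with Coptidis, 12.9% with Bupleuri, 2.71% with Aconiti, 1.73% with Banhasasim-tang, 0.874% with Cimicifugae, 0.206% with Yijung-tang, 0.137% with Citri and 0% with Zizyphi. Against these shares, 5 of the 9 genes were called with Coptidis, 6 with Bupleuri, 2 with Aconiti, 1 with Banhasasim-tang, 2 with Cimicifugae, 0 with Yijung-tang, 1 with Citri and 0 with Zizyphi. For Zizyphi, 0 of the 9 genes had an unadjusted p under 0.05 and DESeq2 called 0, while for Yijung-tang 2 had an unadjusted p under 0.05 and DESeq2 called 1.

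**Figure D2:**
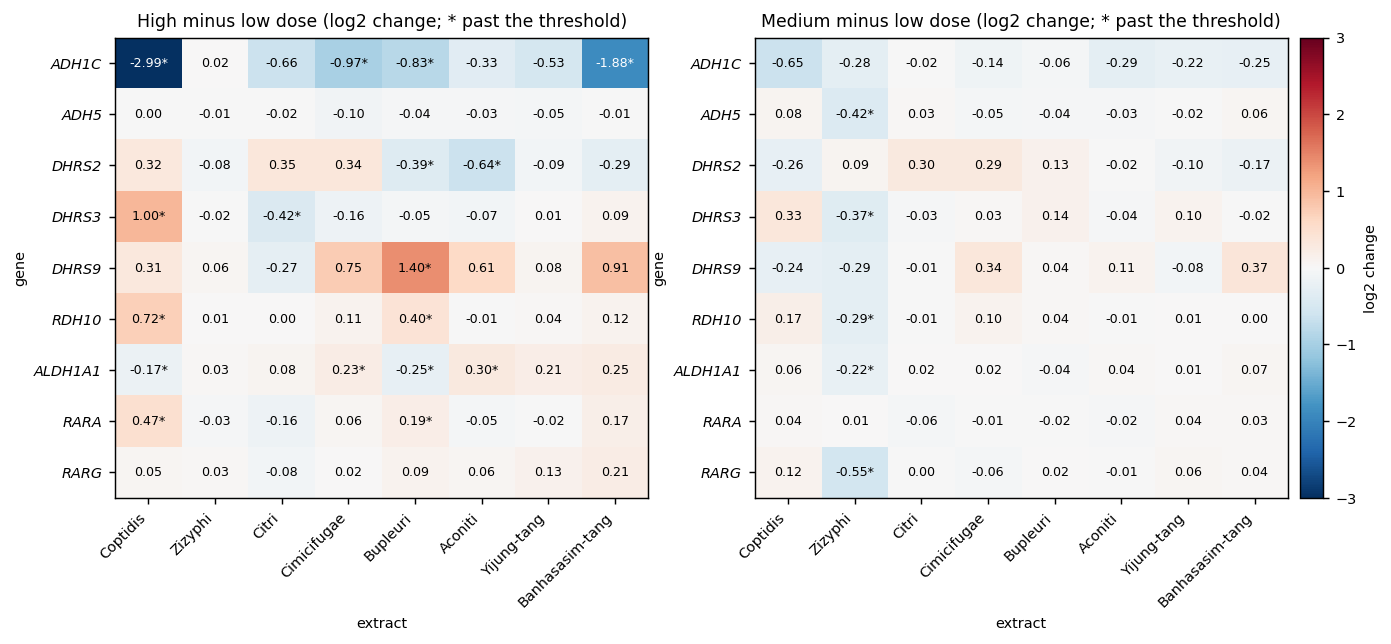
Log2 change of each of the 9 genes from low to high dose (left) and from low to medium dose (right) with each extract; colour gives the change from -3 to 3 and an asterisk marks an adjusted p under 0.05 in edgeR. From low to high dose 17 of 72 cells are marked, ADH1C carries 4 of them, all negative, and ADH5 and RARG carry none, while from low to medium dose all 5 marked cells lie in the Zizyphi column.

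ADH1C encodes a class I alcohol dehydrogenase, which oxidises ethanol and can oxidise retinol. It lies on chromosome 4 at 99336492 to 99353027 (GRCh38, minus strand) in a cluster with the other alcohol dehydrogenase genes. With Coptidis the low-dose libraries held 3.65 and 2.11 CPM, the medium-dose libraries 1.89 and 1.73 CPM, and the high-dose libraries 0.45 and 0.25 CPM, or 12 and 6 counts. All 3 doses stood in order without overlap, and the change from low to high dose was -2.99 ± 0.26, a 7.95-fold fall. The libraries differed within both doses, and over the alternatives run the change lay between -3.47, without Coptidis high replicate 2, and -2.55, without Coptidis low replicate 2. In vehicle ADH1C was at 1.91, 2.55 and 2.51 CPM, and the high dose of Coptidis held 15.1% of the vehicle mean.

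ADH1C was also lower at high than at low dose in 3 further extracts past the threshold. With Banhasasim-tang the single libraries at low, medium and high dose held 3.496, 2.94 and 0.943 CPM, a change of -1.88 ± 0.30 for which the spread was taken from the other groups. With Cimicifugae the low-dose libraries held 4.11, 3.33 and 3.95 CPM and the high-dose libraries 1.83, 2.13 and 1.84 CPM, a change of -0.97 ± 0.16. With Bupleuri the low-dose libraries held 3.85, 3.33 and 3.45 CPM and the high-dose libraries 2.13, 1.89 and 1.95 CPM, a change of -0.83 ± 0.15. In these last extracts the highest library at high dose stayed below the lowest library at low dose. With Citri the high-dose libraries, at 2.19, 1.96 and 2.01 CPM, lay below the low-dose libraries, at 3.28, 3.38 and 3.04 CPM, and the change of -0.66 ± 0.15 missed the threshold. It passed in DESeq2 and on leaving out vehicle replicate 1, either low-dose library of Coptidis or either medium-dose library of Zizyphi, none of them libraries of Citri. It also passed with a block for the replicate number. The change was -0.53 ± 0.18 with Yijung-tang and -0.33 ± 0.15 with Aconiti, neither past the threshold. With Zizyphi it was 0.02 ± 0.17, with high-dose libraries at 3.97 and 3.88 CPM. The value for ADH1C was thus below 0 in 7 of the 8 extracts.

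Reads of ADH1C can be shared with its near-identical neighbours, since ADH1B, at 99304964 to 99352760 on the same strand, overlaps it and ADH1A lies next to that. ADH1A and ADH1B held at most 2 counts in any library and were at 0 in 40 and 55 of the 60 libraries. ADH6, a further gene of the cluster at 99202638 to 99219537, was the only other alcohol dehydrogenase with enough counts to test. ADH4, at 4 counts at most, and ADH7, at 1 count at most, were not tested.

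ADH6 fell past the threshold from low to high dose in 4 extracts, the same 4 in which ADH1C passed, and its value was below 0 in 8 of the 8 extracts. With Coptidis its level was 5.52 ± 0.24 CPM (SD, n = 2) at low dose, 4.79 ± 0.038 CPM at medium dose and 0.298 ± 0.050 CPM at high dose, a change from low to high of -4.20 ± 0.24 (edgeR adjusted p = 1.3e-18). With Banhasasim-tang it went from 6.75 to 3.03 CPM in single libraries, a change of -1.16 ± 0.22 (edgeR adjusted p = 0.00102). With Bupleuri it went from 5.75 ± 0.18 to 2.76 ± 0.10 CPM (SD, n = 3), a change of -1.06 ± 0.13 (edgeR adjusted p = 6.11e-08). With Cimicifugae the change was -0.54 ± 0.13 (edgeR adjusted p = 0.0159). ADH6 was also tested at medium against low dose, where with Coptidis it changed by -0.20 ± 0.15 (edgeR adjusted p = 0.81). With Zizyphi it was called higher at medium dose, at 0.77 ± 0.15, where 31.4% of all genes were called. Without the Zizyphi library that stood apart it was not called. It comes from gene lists chosen with earlier results of these data known, so its p-values are a description.

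ADH5 encodes the class III alcohol dehydrogenase, which removes formaldehyde bound to glutathione and is present in most cells. It lies on chromosome 4 at 99070978 to 99088801 (GRCh38, minus strand). ADH5 was not tested against ADH1C. It showed no change past the threshold from low to high dose in any of the 8 extracts, with log2 values between -0.098 and -0.0039. Its vehicle level was 117 ± 1.53 CPM (SD, n = 3). With Coptidis the low-dose libraries held 132 and 121 CPM and the high-dose libraries 126 and 126 CPM, a change of -0.0039 ± 0.13. Leaving out the group Zizyphi Fructus medium, the highest of the group means was 1.17 times the lowest.

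**Figure D3:**
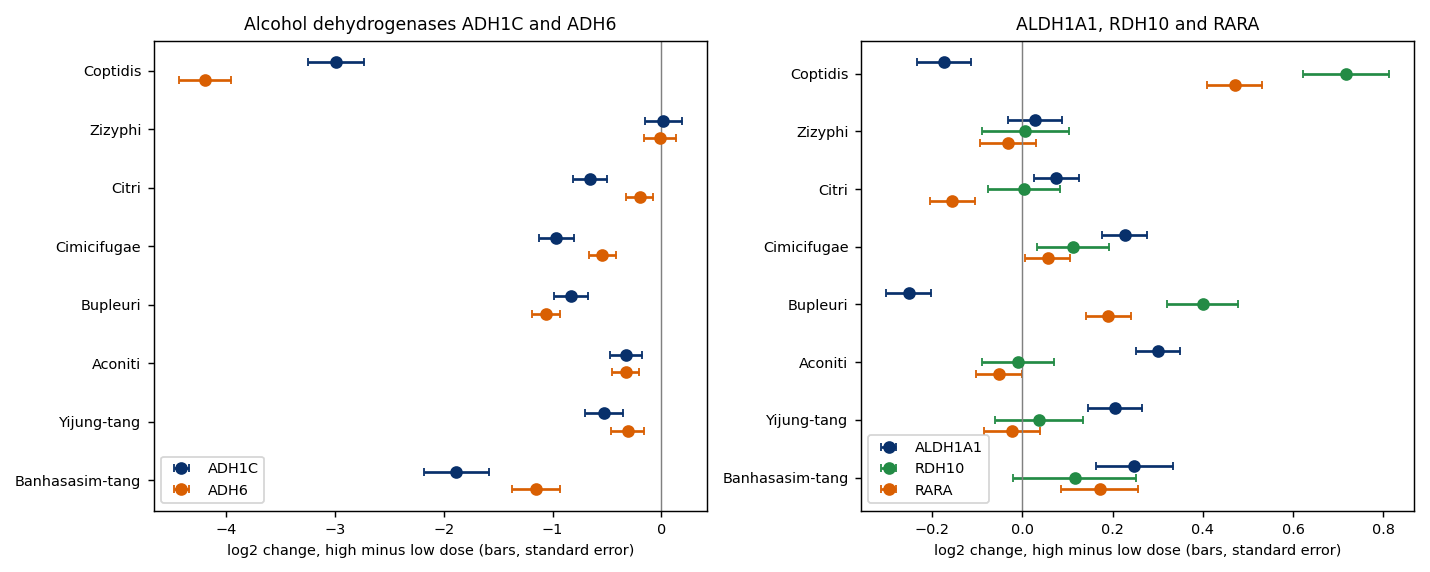
Log2 change from low to high dose with its standard error, by extract, for the alcohol dehydrogenases ADH1C and ADH6 (left) and for ALDH1A1, RDH10 and RARA (right); a value of 0 is no change. ADH1C and ADH6 both lie farthest to the left with Coptidis, at -2.99 and -4.20, and ALDH1A1 lies left of 0 with Coptidis and Bupleuri and right of 0 with the other 6 extracts.

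RDH10, on chromosome 8 at 73294612 to 73325281 (GRCh38, plus strand), encodes the retinol dehydrogenase that makes most retinal in embryonic tissue. With Coptidis it was at 39.0 and 38.6 CPM at low dose, 43.8 and 43.6 CPM at medium dose and 62.4 and 65.2 CPM at high dose, a change from low to high of 0.72 ± 0.10. With Bupleuri it was at 36.2, 37.1 and 38.6 CPM at low dose and 46.7, 48.5 and 52.4 CPM at high dose, a change of 0.40 ± 0.08. The groups did not overlap in either extract, and both changes were past the threshold. In the other 6 extracts the change lay between -0.01 and 0.12. Vehicle held 38.4, 40.6 and 39.9 CPM, close to the low doses.

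DHRS3, on chromosome 1 at 12567910 to 12617731 (GRCh38, minus strand), encodes a reductase that returns retinal to retinol, and its transcription is known to be raised by retinoic acid. With Coptidis it stood at 36.6 and 33.6 CPM at low dose, 44.7 and 43.5 CPM at medium dose and 69.6 and 70.8 CPM at high dose. The high dose was 2.00-fold over the low dose, a log2 change of 1.00 ± 0.09, and no library overlapped between doses. With Citri the direction was opposite, with 31.0, 32.6 and 31.8 CPM at low dose and 25.2, 22.7 and 23.2 CPM at high dose, a change of -0.42 ± 0.08 past the threshold. That call was lost when Citri high replicate 2 or Citri low replicate 2 was left out, over a range of -0.47 to -0.40. In the other 6 extracts the change of DHRS3 lay between -0.16 and 0.09 and did not pass.

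DHRS9, on chromosome 2 at 169064789 to 169096167 (GRCh38, plus strand), encodes a dehydrogenase that acts on retinol and on steroids. With Bupleuri its libraries held 0.81, 0.751 and 0.624 CPM at low dose, 0.671, 0.885 and 0.693 CPM at medium dose, and 2.31, 1.61 and 1.88 CPM at high dose. Only the high dose stood apart, with 40 to 52 counts a library against 14 to 20 at the other doses, and the change from low to high was 1.40 ± 0.25. In Banhasasim-tang the single libraries held 0.732, 0.944 and 1.38 CPM with rising dose, a change of 0.91 ± 0.45 that did not pass. Cimicifugae and Aconiti gave 0.75 ± 0.29 and 0.61 ± 0.31, neither past the threshold, at 8 to 29 counts a library.

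DHRS2, on chromosome 14 at 23630115 to 23645639 (GRCh38, plus strand), encodes a short-chain dehydrogenase that reduces dicarbonyl compounds. With Aconiti it was at 5.80, 5.23 and 6.63 CPM at low dose, 5.73, 6.08 and 5.62 CPM at medium dose and 3.61, 3.79 and 3.88 CPM at high dose, a change from low to high of -0.64 ± 0.13. With Bupleuri it was at 5.43, 6.10 and 5.58 CPM at low dose and 3.82, 4.92 and 4.29 CPM at high dose, a change of -0.39 ± 0.13. Both changes were past the threshold and the groups did not overlap, but the call with Bupleuri was lost in DESeq2 and on leaving out any of 5 of its 6 low-dose and high-dose libraries, all but high replicate 2, over a range of -0.49 to -0.31. The value of DHRS2 was above 0 in 3 extracts and below 0 in 5, and no rise passed in the fit of all libraries. With Coptidis it went from 5.39 and 5.60 CPM at low dose to 6.68 and 7.04 CPM at high dose, a change of 0.32. That rise passed in several alternatives, among them a fit of the compared groups only, at 0.33, but not in DESeq2. With Citri the change was 0.35, and it passed without Citri low replicate 1, at 0.55. With Cimicifugae the mean went from 5.82 to 7.35 CPM. Vehicle, at 8.36, 7.90 and 8.55 CPM, had the highest mean of all 25 groups for DHRS2. Low doses stayed between 4.41 and 7.39 CPM in every extract, so vehicle lay above all low-dose libraries.

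The stretches of DNA just before the transcription starts are shown for DHRS3, DHRS9, DHRS2 and RARA, whose RNA was past the threshold from low to high dose, so that they can be compared. ADH1C, with 0 bases before an annotated exon, and ALDH1A1 were past it as well, and their stretches were searched but are not shown. That of RDH10, also past it, is not used here. Sequences are from RefSeq on GRCh38.p14, given on the strand of the gene from 250 bases before the RefSeq start, and stop before any annotated exon. Capitals mark letters that match 1 of 7 motifs, searched on both strands: the retinoid receptor half-sites AGGTCA and GGTTCA, the antioxidant response core TGACNNNGC, the aryl hydrocarbon receptor core GCGTG, the TATA box TATAAA, the amino acid response core TGATGNAA and the hepatocyte nuclear factor half-site GTTAAT. DHRS3 lies at chr1:12618211-12618460 on the minus strand and rose with Coptidis. RARA lies at chr17:40308930-40309179 on the plus strand and rose with Coptidis and Bupleuri. DHRS9 lies at chr2:169066827-169067034 on the plus strand and rose with Bupleuri. DHRS2 lies at chr14:23629865-23630114 on the plus strand and fell with Bupleuri and Aconiti.
DHRS3: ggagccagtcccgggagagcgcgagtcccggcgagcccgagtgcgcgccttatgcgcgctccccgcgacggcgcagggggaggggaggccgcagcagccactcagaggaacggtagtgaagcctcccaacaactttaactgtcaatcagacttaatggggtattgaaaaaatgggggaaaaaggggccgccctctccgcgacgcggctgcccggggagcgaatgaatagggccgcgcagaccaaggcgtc
RARA: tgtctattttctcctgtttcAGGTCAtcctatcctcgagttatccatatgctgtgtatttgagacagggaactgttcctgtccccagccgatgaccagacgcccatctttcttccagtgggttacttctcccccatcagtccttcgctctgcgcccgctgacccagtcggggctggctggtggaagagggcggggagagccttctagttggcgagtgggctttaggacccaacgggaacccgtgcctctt
DHRS9: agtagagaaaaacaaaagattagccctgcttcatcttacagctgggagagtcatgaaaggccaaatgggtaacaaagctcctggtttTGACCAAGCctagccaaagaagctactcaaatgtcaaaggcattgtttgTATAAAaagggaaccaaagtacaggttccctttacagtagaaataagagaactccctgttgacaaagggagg
DHRS2: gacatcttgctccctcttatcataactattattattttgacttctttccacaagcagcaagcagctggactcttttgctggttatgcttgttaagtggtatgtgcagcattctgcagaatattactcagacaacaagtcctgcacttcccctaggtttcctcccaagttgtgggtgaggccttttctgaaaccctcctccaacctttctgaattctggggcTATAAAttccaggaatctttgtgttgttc

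Over the 8 genes whose 250 bases were searched, 4 held none of the motifs, namely ADH1C, ALDH1A1, DHRS3 and RARG. RARA held AGGTCA at 230 bases before its start, a motif found in 12.1% of 35116 promoters of the same length. DHRS9 held TGACNNNGC at 163 bases before its start, found in 10.9% of promoters, and TATAAA at 114 and at 32 bases, found in 10.7%, of which the nearer lies in an annotated exon and is not shown. DHRS2 held TATAAA at 29 bases before its start. ADH5 held GCGTG at 69 and 14 bases, a motif of 32.2% of promoters. GGTTCA, TGATGNAA and GTTAAT, held by 7.16%, 3.14% and 6.23% of promoters, matched in none of the 8. Of the 4 genes past the threshold with Coptidis that were searched, only RARA held any motif, so none could be shared. The windows differed in base composition, with 65.2% G and C for DHRS3, 56.4% for RARA, 43.2% for DHRS2 and 39.2% for DHRS9, against a median of 58% over all promoters.

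ALDH1A1, on chromosome 9 at 72900662 to 73080442 (GRCh38, minus strand), encodes a cytosolic enzyme that oxidises retinal to retinoic acid and serves as a marker of stem-like cells in colon tumours. It was the most abundant of the 9 genes, and its replicates varied least but for those of RARA. With Aconiti it was at 838, 846 and 804 CPM at low dose, 881, 852 and 827 CPM at medium dose and 1021, 1030 and 1016 CPM at high dose, a change from low to high of 0.30 ± 0.05. With Cimicifugae it was at 841, 816 and 818 CPM at low dose and 988, 981 and 927 CPM at high dose, a change of 0.23 ± 0.05. The call with Cimicifugae was lost on leaving out high replicate 1 or 2 or low replicate 2 or 3, over a range of 0.21 to 0.26. These were the 2 extracts in which ALDH1A1 rose past the threshold.

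In Coptidis and Bupleuri the change of ALDH1A1 was in the other direction. With Bupleuri it was at 846, 841 and 814 CPM at low dose and 686, 689 and 724 CPM at high dose, a change of -0.25 ± 0.05. With Coptidis it was at 893 and 869 CPM at low dose, 917 and 920 CPM at medium dose and 770 and 793 CPM at high dose, a change of -0.17 ± 0.06. The groups did not overlap, but the call with Coptidis was lost on leaving out Coptidis high replicate 2 or Coptidis low replicate 2, and its change was -0.04 with libraries scaled by their totals alone. With Yijung-tang ALDH1A1 was at 814 and 829 CPM at low dose and 952 and 942 CPM at high dose, and with Banhasasim-tang it went from 783 to 930 CPM. Those changes, 0.21 ± 0.06 and 0.25 ± 0.09, missed the threshold in the fit with all libraries and passed without either medium-dose library of Zizyphi.

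RARA, on chromosome 17 at 40309192 to 40357643 (GRCh38, plus strand), encodes a retinoic acid receptor present in most tissues. With Coptidis it was at 32.3 and 31.7 CPM at low dose, 32.9 and 33.0 CPM at medium dose and 44.2 and 44.5 CPM at high dose, a change from low to high of 0.47 ± 0.06. With Bupleuri it was at 33.9, 31.6 and 33.4 CPM at low dose and 38.3, 38.5 and 36.2 CPM at high dose, a change of 0.19 ± 0.05. Both were past the threshold, and only the high doses stood apart. With Bupleuri the call was lost without Bupleuri low replicate 2, at 0.16.

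RARG, on chromosome 12 at 53210567 to 53232980 (GRCh38, minus strand), encodes the receptor that is most abundant in skin. It was not past the threshold from low to high dose in any extract, with log2 values between -0.08 and 0.21. With Coptidis it was at 109 and 110 CPM at low dose and 114 and 113 CPM at high dose, a change of 0.05 ± 0.14. It was at 95.9 and 38.8 CPM in the 2 libraries of Zizyphi at medium dose, and without the lower of these its change with Coptidis was 0.06 ± 0.05. With Bupleuri RARG was at 103.6 to 104.5 CPM at low dose and 108.3 to 112.9 CPM at high dose. That change of 0.09 missed the threshold in the fit of all libraries and passed with the compared groups fitted alone. Of the 2 receptors, RARA was thus the one called with Coptidis and with Bupleuri in the fit of all libraries. The difference between the receptors was not tested.

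Differences between the extracts of a library set were tested as the difference of their changes from low to high dose, 9 genes in each of 4 sets. Of these 36 differences 7 were past the threshold. They are a description too, since the changes they are made of chose the genes. Coptidis against Zizyphi gave 4 of 9 genes, where 42.9% of all genes were called, with -3.01 ± 0.32 for ADH1C, 1.02 ± 0.13 for DHRS3, 0.71 ± 0.14 for RDH10 and 0.50 ± 0.09 for RARA. Bupleuri against Aconiti gave 3 of 9 genes, where 8.52% of all genes were called, with -0.55 ± 0.07 for ALDH1A1, 0.41 ± 0.11 for RDH10 and 0.24 ± 0.07 for RARA. That of RDH10 was lost without Aconiti high replicate 1 or Bupleuri high replicate 3, over a range of 0.33 to 0.47, and that of RARA on leaving out any of 5 libraries, over a range of 0.17 to 0.28. DHRS2, which fell with both of these extracts, differed between them by 0.26 ± 0.18, not past the threshold, with a 95% interval of -0.11 to 0.62.

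Citri against Cimicifugae and Banhasasim-tang against Yijung-tang gave 0 of 9 genes each in edgeR, where 0.2% and 0.462% of all genes were called. Unadjusted p-values were under 0.05 for 4 and 1 genes, and DESeq2 called 0 in both. The difference of ADH1C between the formulas was -1.36 ± 0.35. It was past the threshold without Yijung-tang low replicate 2, at -1.57, and on leaving out either low-dose library of Coptidis or either medium-dose library of Zizyphi. It also passed with a block for the replicate number. Doses matched within the sets of Citri with Cimicifugae and of the formulas, whereas Coptidis and Bupleuri were at lower doses than Zizyphi and Aconiti.

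The change from low to medium dose is made of the levels at each dose that helped to choose the genes, so that its values are a description as well, with no p. In 7 of the 8 extracts, 0 of the 9 genes passed in edgeR. The share of all genes called was 1.35% with Coptidis, 0.025% with Banhasasim-tang, 0.00624% with Cimicifugae and 0% with Citri, Bupleuri, Aconiti and Yijung-tang. An unadjusted p under 0.05 was reached by 2 genes with Coptidis, 1 with Citri and 1 with Cimicifugae, and by 0 with the others. DESeq2 called 1 gene with Coptidis and 0 with the other 6.

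With Coptidis the genes nearest to the threshold at medium dose were DHRS3, at 0.33 ± 0.09, and ADH1C, at -0.65 ± 0.19. DHRS3 passed in DESeq2 and without the Zizyphi library that stood apart, at 0.34 ± 0.07, where 3.93% of all genes were called. It also passed with a block for the replicate number and with the compared groups fitted alone. ADH1C, at -0.64 ± 0.20, did not pass without that library, but passed at -1.002 ± 0.20 without Coptidis low replicate 3 and was at -0.21 without Coptidis low replicate 2. Between the medium and high doses of Coptidis both genes went on in the same direction, as the values by library above show. RDH10 at 0.17 ± 0.10 and RARA at 0.04 ± 0.06 did not pass at medium dose.

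With Zizyphi 5 of the 9 genes were past the threshold from low to medium dose, all lower, where 31.4% of all genes were called. They were RARG at -0.55 ± 0.15, ADH5 at -0.42 ± 0.13, DHRS3 at -0.37 ± 0.10, RDH10 at -0.29 ± 0.10 and ALDH1A1 at -0.22 ± 0.06. These values come from 1 library: ADH5 was at 129 CPM in medium replicate 2 and 60.4 CPM in medium replicate 3, against 127 and 129 CPM at low dose. Without replicate 3, 0 of the 9 genes and 0% of all genes were called in edgeR, and ADH5 was at 0.02 ± 0.06. A change of the 9 genes with Zizyphi at medium dose was thus measured in a single library only.

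At high dose against vehicle 23 of 72 pairs were past the threshold, 12 higher and 11 lower, with the limit that vehicle formed its own library set. Without vehicle replicate 1 the count was 17, and without the Zizyphi library that stood apart it was 33. Those 2 counts were not set beside the share of all genes called in the same fits, so they describe the fits and not the 9 genes. Among the pairs gained without the Zizyphi library was RARG, lower with Citri at -0.24, Zizyphi at -0.16 and Cimicifugae at -0.12. ADH5 was gained there as well, higher with Coptidis at 0.11 and with Zizyphi at 0.12. The shares of all genes called were 62.9% with Coptidis, 27% with Bupleuri, 18% with Cimicifugae, 17.3% with Aconiti, 13.2% with Citri, 7.63% with Yijung-tang, 7.61% with Banhasasim-tang and 6.91% with Zizyphi. The 9 genes gave 4, 5, 1, 3, 3, 2, 3 and 2 calls in the same order. All of these comparisons share the 3 vehicle libraries.

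The changes of ADH1C with Cimicifugae and Bupleuri, at -0.28 ± 0.16 and -0.24 ± 0.16 against vehicle, were not past the threshold. Vehicle, at 2.32 ± 0.358 CPM (SD, n = 3), lay below the mean of the low dose in 8 of 8 extracts. ADH1C with Zizyphi at high dose was 0.74 ± 0.16 over vehicle, although it was at 0.02 ± 0.17 from low to high dose, and that call was lost without vehicle replicate 1 or Zizyphi high replicate 3, over a range of 0.63 to 0.82. DESeq2, at 0.73 ± 0.19, left the gene out of its adjustment and so gave it no adjusted p. ALDH1A1 was higher than vehicle past the threshold in 5 extracts, by 0.15 to 0.38, and lower with Bupleuri by -0.16 ± 0.05. The ALDH1A1 call with Citri was lost without vehicle replicate 1 or 2 or any high-dose library of Citri. That with Banhasasim-tang was lost without vehicle replicate 2, and that with Bupleuri without vehicle replicate 3 or Bupleuri high replicate 1. DHRS2 was lower than vehicle in 5 extracts past the threshold and below it in 8 of 8. Its calls with Zizyphi and Yijung-tang were lost without vehicle replicate 1 or either high-dose library of the extract. RARA was lower than vehicle past the threshold with Citri at -0.20 and Aconiti at -0.16. The RARA call with Aconiti was lost without vehicle replicate 1 or 2 or Aconiti high replicate 1 or 2. With Coptidis the 4 genes ADH1C, DHRS3, RDH10 and RARA were past the threshold in the same direction against vehicle, at -2.71 ± 0.25, 1.18 ± 0.08, 0.69 ± 0.09 and 0.37 ± 0.05.

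The other genes of retinoid and aldehyde metabolism were taken from lists of 65 genes by function, of which 48 had enough counts to test. The lists were chosen with earlier results of these data known. Genes are named from them by the size of the same change or after their values were seen. Their adjusted p-values are thus a description. With Coptidis 56.2% of all genes were called from low to high dose, and each count of listed genes stands beside that share. Of 8 other retinol and retinal short-chain dehydrogenases tested, 1 rose and 4 fell with Coptidis, close to the 56.2% of all genes, with a median of -0.10 against -0.02 over all genes. SDR16C5, which oxidises retinol, went from 2.22 ± 0.32 to 5.75 ± 0.12 CPM (SD, n = 2), a change of 1.38 ± 0.23 (edgeR adjusted p = 2.59e-06). RDH5, known for its part in the eye, went from 2.62 ± 0.50 to 1.16 ± 0.11 CPM (SD, n = 2), a change of -1.17 ± 0.29 (edgeR adjusted p = 0.00072). DHRS4, a retinal reductase of peroxisomes, changed by -0.46 ± 0.14 (edgeR adjusted p = 0.00447), a call lost without Coptidis high replicate 3, at -0.32, and its reads can be shared with its close copy DHRS4L2.

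Of 15 other aldehyde dehydrogenases tested, 3 rose and 10 fell with Coptidis, where 56.2% of all genes were called, with a median of -0.42 against -0.02 over all genes. ALDH4A1, a mitochondrial enzyme of proline breakdown, went from 53.5 ± 1.3 to 15.2 ± 1.4 CPM (SD, n = 2), a change of -1.82 ± 0.20 (edgeR adjusted p = 2.31e-10). ALDH1B1, also mitochondrial, went from 38.1 ± 2.8 to 11.5 ± 0.66 CPM (SD, n = 2), a change of -1.73 ± 0.13 (edgeR adjusted p = 1.08e-14). The genes that rose included ALDH1A3, which like ALDH1A1 makes retinoic acid and is singled out here after its values were seen. It was at 29.2 ± 0.43 CPM at low dose, 57.0 ± 1.7 CPM at medium dose and 62.4 ± 1.9 CPM at high dose (SD, n = 2), with 1.10 ± 0.09 from low to high (edgeR adjusted p = 2.49e-13). ALDH1A3 and ALDH3A1 were the genes of the lists called from low to medium dose with Coptidis, at 0.97 ± 0.09 (edgeR adjusted p = 1.02e-09) and 0.65 ± 0.07 (edgeR adjusted p = 6.68e-08). Without the Zizyphi library that stood apart, ALDH3A2, ALDH3B1, PLAAT4 and STRA6 were called as well, all higher, by 0.30, 0.22, 0.43 and 0.57.

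ALDH1A3 rose from low to high dose past the threshold with Coptidis, Banhasasim-tang, Cimicifugae and Bupleuri. ALDH1A1, which catalyses the same step, fell past it with Coptidis and Bupleuri. With Cimicifugae both genes rose past the threshold, ALDH1A3 by 0.48 and ALDH1A1 by 0.23, and with Banhasasim-tang both values were above 0. The difference between the genes was not tested. With Banhasasim-tang ALDH1A3 went from 37.1 to 67.1 CPM, a change of 0.85 ± 0.13 (edgeR adjusted p = 2.81e-05). ALDH3A1, which oxidises aromatic and medium-chain aldehydes, was higher at high than at low dose past the threshold in 6 of the 8 extracts. Its largest change was with Banhasasim-tang, from 21.9 to 59.0 CPM, at 1.43 ± 0.11 (edgeR adjusted p = 9.03e-13), and with Bupleuri it went from 19.0 ± 0.81 to 40.0 ± 0.53 CPM (SD, n = 3).

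**Figure D4:**
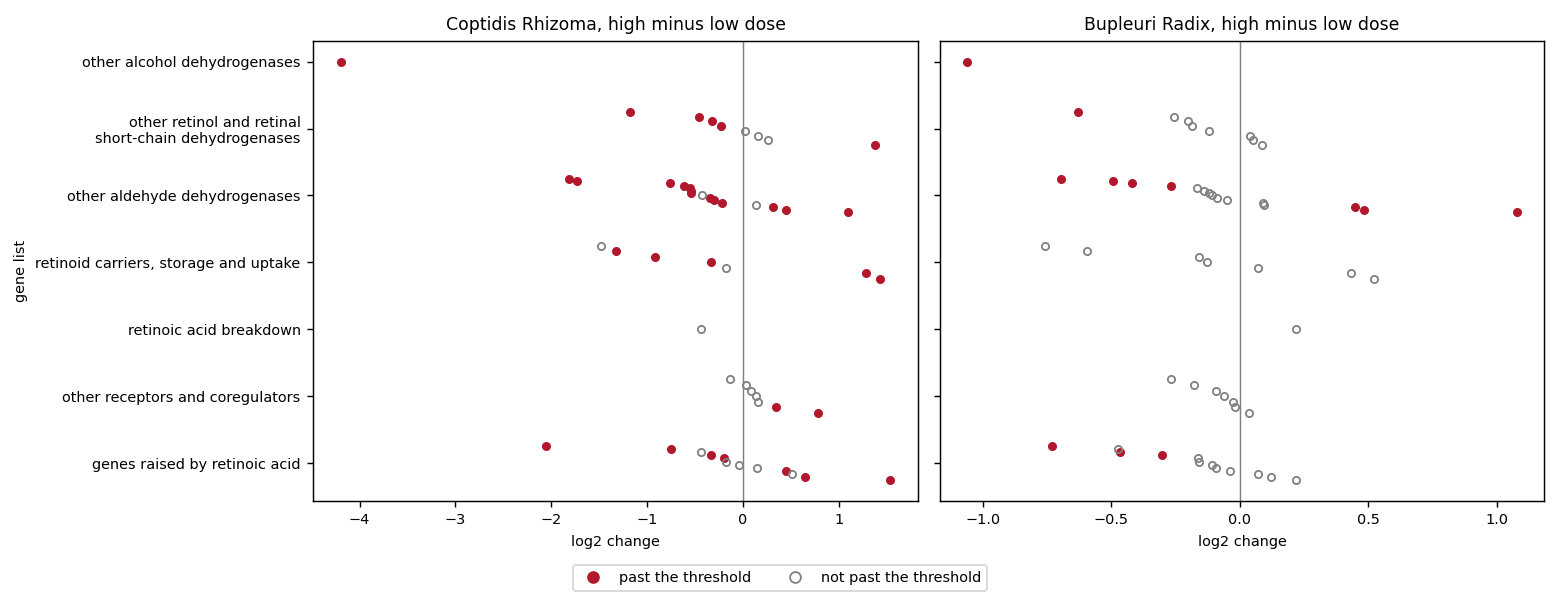
Log2 change from low to high dose of the genes of 7 lists that were tested, with Coptidis (left) and Bupleuri (right), 1 point a gene; filled red points are past the threshold and open grey points are not. The scales of the panels differ. With Coptidis 10 of 15 other aldehyde dehydrogenases lie to the left as filled points and 3 to the right, and the single other alcohol dehydrogenase, ADH6, lies farthest left in both panels.

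Of 7 carrier, storage and uptake genes tested, 2 rose and 3 fell with Coptidis, beside 56.2% called over all genes. RBP4, the retinol carrier of plasma, went from 2.07 ± 0.28 to 5.61 ± 0.14 CPM (SD, n = 2), a change of 1.43 ± 0.23 (edgeR adjusted p = 1.66e-06). The carotene-cleaving enzymes moved apart, with BCO1 at -1.33 ± 0.36 (edgeR adjusted p = 0.00922) and BCO2 at 1.28 ± 0.39 (edgeR adjusted p = 0.00498), both below 1.5 CPM. Those calls were lost without Coptidis low replicate 3, at -1.26 and 0.96, and that of BCO1 also without Coptidis high replicate 2, at -1.24. LRAT, which stores retinol as esters, was at 0 counts in 60 of 60 libraries, which allows up to 0.0817 to 0.166 CPM in a library, counting error only. DGAT1, which can also esterify retinol and is singled out after its values were seen, went from 40.4 ± 0.95 to 21.5 ± 0.063 CPM (SD, n = 2), a change of -0.91 ± 0.08 (edgeR adjusted p = 5.01e-13).

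Of 7 other receptor and coregulator genes tested, 2 rose and 0 fell with Coptidis, beside the same 56.2%, namely the coactivator NCOA3 at 0.78 ± 0.11 (edgeR adjusted p = 6.65e-08) and the corepressor NCOR1 at 0.35 ± 0.09 (edgeR adjusted p = 0.000765). The receptors RARB and RXRG, at 5 counts or fewer and 1 count or fewer, were not tested. RXRA and RXRB, the partners of the retinoic acid receptors, did not pass from low to high dose in any extract, and are also named after their values were seen.

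Of 12 tested genes that retinoic acid is known to raise, 3 rose and 4 fell with Coptidis, close to the 56.2% called over all genes, with a median of -0.10 against -0.02. PLAAT4, a phospholipase and growth suppressor, went from 19.0 ± 3.1 to 55.1 ± 0.16 CPM (SD, n = 2), a change of 1.54 ± 0.11 (edgeR adjusted p = 5.62e-15). CDX1, an intestinal homeobox factor, changed by -2.06 ± 0.35 (edgeR adjusted p = 3.4e-06) and MEIS1, another homeobox factor, by -0.74 ± 0.30 (edgeR adjusted p = 0.0337). The call of MEIS1 was lost in DESeq2 and without any of 3 of the 4 libraries compared, over a range of -1.13 to -0.40. With Bupleuri 0 of the 12 rose and 3 fell, where 12.9% of all genes were called, with PLAAT4 at -0.47 ± 0.10 (edgeR adjusted p = 0.000951). CYP26A1, the enzyme that breaks down retinoic acid and the gene best known to follow it, was at 0.0418 to 0.58 CPM over all libraries and did not pass in any extract from low to high or low to medium dose in edgeR. CYP26B1 and CYP26C1 held at most 7 and 2 counts in a library and were not tested.

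Over the means of the 25 groups, the 9 genes can be set beside each other and beside all other tested genes, as a description. The group means share the scaling of libraries and the library sets, and r without Coptidis high, the group farthest from the rest in several of these genes, is given as well. RDH10 and RARA followed each other with r = 0.85, or 0.65 without Coptidis high, and ADH1C ran against both, at r = -0.81 with RDH10 and r = -0.82 with RARA, or -0.52 and -0.57. DHRS3 and RARA had r = 0.69, which fell to 0.23 without that group, and DHRS3 and RDH10 had r = 0.78, which fell to 0.45. Without it, other pairs stood higher than RDH10 with RARA. They included DHRS9 with RARA at 0.82, RDH10 with RARG at 0.76 and DHRS9 with RDH10 at 0.73. ADH5 and RARG had r = 0.76, and both were low in the Zizyphi library that stood apart. RDH10 was low in that library too, at 25.9 CPM against 38.4 CPM in its partner. For pairs of the 9 genes, r without Zizyphi medium was not computed, so how far RDH10 with RARG rests on that library was not tested.

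The 2 genes most like each of the 9 over the 25 groups were named by their r. For ADH1C they were KANK1 at 0.96 and CHST3 at 0.94, or 0.90 and 0.89 without Coptidis high. For RDH10 they were GDF15, a cytokine raised under cell stress, at 0.97 and TXNRD1, a thioredoxin reductase, at 0.96, or 0.94 and 0.90. For RARA they were MAFF at 0.94 and MAFG at 0.92, both small MAF transcription factors, or 0.85 and 0.85. DHRS3 was most like BICDL2 at 0.93 and CTDSP2 at 0.91, or 0.80 and 0.82. DHRS9 was most like PADI1 at 0.85 and AKR1B10, an aldo-keto reductase that can reduce retinal, at 0.84, or 0.87 and 0.84.

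The remaining genes had likenesses that were weaker or rested on 1 group. ADH5 was most like SCOC at 0.93 and MDH1 at 0.93, which fell to 0.71 and 0.67 without Zizyphi medium. RARG was most like SLC22A18 at 0.95 and F12 at 0.95, which fell to 0.82 and 0.72. DHRS2 reached 0.74 with YWHAB and 0.69 with WWC1, and ALDH1A1 reached 0.72 with CHRD and 0.71 with ERI2.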

How the data were processed

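RNA of HT29 cells was measured in 60 libraries. Per the labels' protocols, 1 µg of total RNA entered a directional mRNA kit and was read as 100 bp paired ends. The submitters' processing notes list RSEM 1.3.3, STAR 2.7.3a, Trim Galore 0.6.5 and FastQC 0.11.9, and the build GRCh38. Neither the gene annotation nor the strand setting of the counting is given in the sources used here. The table deposited by the authors has expected counts per gene, which are not scaled to depth. Of its 270 columns, 60 were used and 210 belong to samples not analysed here. Whole numbers made up 91.03% of these values, and all were rounded to whole counts. Coordinates are those of GENCODE 29, which held 94.03% of the gene IDs.

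A gene was tested if 3 or more libraries had it at 0.5 CPM or more. In edgeR 4.0.16 (R 4.3.3), TMM scaling was followed by a quasi-likelihood fit of 25 group means with 35 residual degrees of freedom and Benjamini-Hochberg adjustment over all genes of a comparison. The biological coefficient of variation was 7.83%, and CPM values are scaled by TMM. DESeq2 1.42.0 was an alternative, as were other size factors and filters, separate fits, a replicate block and leaving out each library. The method was tested on simulated counts. The 9 genes, the lists and the comparisons were chosen with earlier results of these data known. Beside the 9 genes, the text names up to 3 genes of each list with the largest change from low to high dose past the threshold, and the 2 genes most like each of the 9. Alternatives for the listed genes were added after seeing the data. With Coptidis most genes were called, and TMM assumes that most genes do not change.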

Additional observations from a re-analysis of the deposited data

Results flagged for a closer look

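In 7 cases the change of a gene from low to high dose differed between the extracts of a library set in edgeR's test of the difference itself, with Benjamini-Hochberg adjustment over all 16022 genes. These cases are a description, since the changes they are made of helped to choose the genes. The share of all genes called was 42.9% for Coptidis minus Zizyphi and 8.52% for Bupleuri minus Aconiti. Coptidis minus Zizyphi was -3.01 ± 0.32 (log2 ± SE) for ADH1C, 1.02 ± 0.13 for DHRS3, 0.71 ± 0.14 for RDH10 and 0.50 ± 0.09 for RARA. Bupleuri minus Aconiti was -0.55 ± 0.07 for ALDH1A1, 0.41 ± 0.11 for RDH10 and 0.24 ± 0.07 for RARA. Of 60 fits that each left out 1 library, 58 kept this call for RDH10 and 55 kept it for RARA. The high doses differed, at 320 µg/mL against 500 µg/mL and at 310 µg/mL against 500 µg/mL.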

How the results depend on the processing

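Of the 17 pairs of a gene and an extract past the threshold from low to high dose, 10 were shared when libraries were scaled by their totals alone, where 11 passed in all, the other being DHRS2 with Coptidis, and leaving out 1 library gave 15 to 21. High dose against vehicle gave 23 pairs, 11 with totals alone, 11 in separate fits of each comparison, and 17 (without vehicle replicate 1) to 33 (without Zizyphi medium replicate 2) on leaving out 1 library. Low to medium dose gave 5 pairs, 1 in separate fits of each comparison (DHRS3 with Coptidis, not among the 5), and 1 (without Zizyphi medium replicate 3) to 7 (without Zizyphi medium replicate 2) on leaving out 1 library. The 7 differences between extracts became 6 to 9 on leaving out 1 library. None of these counts was set beside the share of all genes called in the same fit. For the listed genes, where alternatives were added after seeing the data, 57 pairs from low to high dose became 50 to 84. Their 23 pairs from low to medium dose became 8 with groups fitted alone and 8 (without Zizyphi medium replicate 3) to 42 (without Zizyphi medium replicate 2) on leaving out 1 library.

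From low to medium dose with Zizyphi, RARA was at -0.37 with totals alone, against 0.01, and ADH5 ranged from -1.08 without medium replicate 2 to 0.0152 without medium replicate 3. The cause was not tested.

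With a replicate block the counts were 18, 6, 23 and 8 for high against low, medium against low, high against vehicle and the differences between extracts, and 56 and 25 for the listed genes. The pairs gained were ADH1C with Citri from low to high dose, at -0.66, DHRS3 with Coptidis from low to medium dose, at 0.33, and the difference of ADH1C between the formulas, at -1.36, and no pair of the 9 genes was lost. The numbers were not taken to pair libraries. In the set of Citri and Cimicifugae, same-numbered libraries deviated together with r from -0.055 to 0.197 (median 0.081). Libraries with different numbers there had r from -0.209 to 0.069 (median -0.039). In the set of Bupleuri and Aconiti, same-numbered libraries had r from -0.045 to 0.133 (median 0.022). Those with different numbers had r from -0.111 to 0.075 (median -0.012). In these sets 17 of 18 and 15 of 18 libraries correlated best with their own number, a hint from the data and not the design. Banhasasim-tang with 1 library a dose could not be fitted alone. DHRS9 was at 8 to 52 counts a library, and its standard errors from low to high dose were 0.25 to 0.45. The lowest single count was 6, for ADH1C with Coptidis at high dose. DESeq2 gave no adjusted p for 4 pairs from low to high dose and 7 against vehicle, which were not counted as lost.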
